A study of Mus musculus with 45 samples.

Results

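The 82 genes described here carry symbols of cytosolic ribosomal proteins in mouse dendritic cells, 49 those of the large (60S) and 33 those of the small (40S) subunit, with paralogs and 1 transcribed pseudogene, Rps4y2, among them. They were chosen by symbol: Rpl, Rplp, Rps or Rpsa genes, leaving out the Rps6k kinases, Rps19bp1 and names marked as pseudogenes, with a mean of at least 1 CPM (counts scaled to library size) over all libraries. Of 85 symbols of this form among the 23420 genes in the files, Rpl10l, Rpl39l and Rpl3l were left out, at means of 0, 0.38 and 0.43 CPM. The members just inside the limit were Rps4y2 at 2.74, Rpl34 at 3.80 and Rpl30 at 5.96 CPM. No measured difference between groups entered this rule, though it was chosen with earlier results of these data known. All 82 members passed the filter on low counts, and 10287 genes were tested in all.

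RNA was sequenced from 45 libraries of bone marrow cells of C57BL/6 mice, grown with 20 ng/ml GM-CSF in cultures of day 9 and sorted as live cells high in CD11c, in 9 groups of 5 biological replicates. For 8 h, wild type (WT) cells received medium, LPS, 4µ8C, 4PBA or Rapamycin, and cells of genotype Bat3 fl/fl CD11c Cre (KO) received medium, LPS, 4µ8C or 4PBA. LPS (lipopolysaccharide) activates Toll-like receptor 4, 4µ8C is an inhibitor of the RNase of IRE1, 4PBA acts as a chemical chaperone and on histone deacetylases, and rapamycin is an inhibitor of the kinase complex mTORC1. Each group is labelled with 1 treatment, no vehicle is named, and it is not stated whether LPS accompanied 4µ8C, 4PBA or rapamycin. The Cre of the KO cells is driven by CD11c, so deletion is limited to cells that express it. Bag6, for which Bat3 is an older symbol, was measured at 9.25 to 19.6 CPM in WT and 3.29 to 14.8 CPM in KO libraries, and no genotype comparison of it passed the test. No rapamycin group of KO cells was analysed here.

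Ribosomal proteins assemble with ribosomal RNA into the 2 subunits that translate all cytosolic mRNA, and their genes are transcribed at high rates in growing cells. Their mRNAs typically begin with a 5′ terminal oligopyrimidine (TOP) tract, a C followed by a run of C and T bases. Through this tract mTORC1 controls how strongly they are translated, and translation factors such as Eef1a1 and Eef2 carry it too. In dendritic cells, activation by microbial ligands is known to change both metabolism and protein synthesis.

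Start sites were available for 61 of the 82 members in the RefSeq table of mouse build GRCm38.p6, and 13 of them (21.3%) had the TOP form, C and then at least 4 C or T bases, exactly at the annotated start. The same form stood at the start of 3.01% of the 27025 genes in that table, of 2.88% of those whose mean reached 1 CPM and of 0 of 69 mitochondrial ribosomal protein genes. Anywhere from 10 bases before to 10 bases after the start it was found in 59% of members, in 34.4% of all genes and in 37.5% of genes whose mean reached 1 CPM. The letters TATAAA, on either strand within 50 bases before the start, were found in 1 member (1.64%), in 4.17% of all genes and in 2.17% of those that reached 1 CPM. The windows printed here show the 15 bases before and the 15 bases from the start for members whose counts are described further on. Capitals mark runs of the TOP form that begin within 10 bases of the start. They are read in the direction of transcription. They lie at chr4:86857353-86857382 (Rps6, minus strand), chr5:121204486-121204515 (Rpl6, plus), chr7:3704026-3704055 (Rps9, plus), chr9:120571502-120571531 (Rpl14, plus), chr3:28805493-28805522 (Rpl22l1, plus), chr9:66946071-66946100 (Rps27l, plus), chr12:69184053-69184082 (Rpl36al, minus), chr17:24720048-24720077 (Rps2, plus) and chr3:90213634-90213663 (Rps27, minus).
Rps6: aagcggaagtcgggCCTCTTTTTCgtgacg
Rpl14: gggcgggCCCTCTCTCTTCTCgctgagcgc
Rps27: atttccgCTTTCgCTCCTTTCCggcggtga
Rps9: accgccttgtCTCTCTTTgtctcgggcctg
Rpl6: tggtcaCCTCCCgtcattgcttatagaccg
Rpl22l1: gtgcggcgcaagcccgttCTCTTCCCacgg
Rps2: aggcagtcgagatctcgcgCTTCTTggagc
Rps27l: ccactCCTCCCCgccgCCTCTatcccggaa
Rpl36al: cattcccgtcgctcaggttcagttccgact
The run spans the annotated start in Rps6, Rpl14, Rps27 and Rps9, though in Rps9 the first base is not the C that the form asks for, and Rpl36al showed no run in the window. Rps27l has 2 starts in the table, of which the upstream one is shown. A match describes letters and not a measured start, and annotated starts can lie some bases off the true one.

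The libraries held between 1509219 and 4737736 expected counts, of which 8.39% to 12.7% belonged to Rn45s, the precursor of ribosomal RNA. Markers of dendritic cells, 10 genes, summed to 3841 to 10882 CPM per library, with none of them at 0 in a whole group. Those of macrophages summed to 1374 to 3703 CPM and those of neutrophils to 17.6 to 148 CPM. Of the 8 neutrophil markers measured only 2 reached a mean of 1 CPM in each group, so their sums come mostly from 2 genes. A code in the description of each library was read as a plate position, though the labels do not say that it is one. Read so, it placed 17 libraries at the outer edge of a plate and 28 inside. Outer codes belonged to every WT medium and WT LPS library, inner ones to every library of KO medium, KO 4PBA and WT 4PBA. Some genes, Rps2 among the members, moved with this code, so values within 1 kind of code are given where both groups hold it.

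The ribosomal protein genes were measured across a wide span of levels per length. On the TPM scale as deposited, their means over all libraries had a median of 726 TPM, with quartiles of 398 and 986. Above 1000 TPM lay 19 members and under 100 TPM lay 8. The highest were Rpl41, the smallest protein of the large subunit, at 3656 TPM, Rps28 at 2084, the stalk protein Rplp1 at 2006, Rps29 at 1972 and Rpl19 at 1806 TPM. The lowest were Rps4y2 at 5.23, Rpl34 at 13.9, Rpl30 at 24.1, Rpl7l1 at 35.95 and Rps15a at 42.6 TPM. Rpl34 and Rpl30 share sequence with copies that had higher counts, Rpl34-ps1 at a mean of 171 CPM and Gm12191 at 188 CPM. TPM depends on the listed length, which was 5134 bases for Rps15a, and its mean in counts was 152 CPM. Rps4y2 is an older name of Rps4l, a transcribed pseudogene per RefSeq. The stalk proteins, which recruit elongation factors, stood at 1199 TPM for Rplp0, 2006 for Rplp1 and 1040 for Rplp2.

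Paralogs of the same protein differed in level. Rps27 was listed at a mean of 752 TPM, an uncertain level since single libraries ran from 9.04 to 2669, and Rps27l at 305, from 191 to 536. The means were 459 TPM for Rpl36a and 234 for Rpl36al, 708 for Rpl7 and 35.95 for Rpl7l1, and 1068 for Rps4x against 5.23 for Rps4y2. For Rpl22 the order was the other way on this scale, with 47.3 TPM against 88.5 for Rpl22l1. Their listed lengths were 2040 and 477 bases, and in counts Rpl22 was higher, at a mean of 62.7 against 17.0 CPM. The spread of log2 CPM within groups had a median SD of 0.300 over the members, from 0.170 for Rpl41 to 1.65 for Rps27.

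Ribosomal protein genes held the largest share of a library after rapamycin and a smaller one after LPS than in medium. In WT medium they took 2.54%, 2.64%, 2.83%, 2.80% and 2.21% of the counts of replicates 1 to 5, a mean of 2.60% ± 0.252 (SD, n = 5). With rapamycin the values were 4.21%, 4.29%, 4.77%, 4.61% and 3.80%, a mean of 4.34% ± 0.377 (n = 5), and 1.67 times the medium mean. All 5 rapamycin libraries lay above all 40 others. Because these are bulk samples, fewer cells of a type and less RNA per cell cannot be told apart.

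With LPS the shares in WT cells were 1.80%, 1.93%, 1.97%, 1.56% and 1.37%, a mean of 1.73% ± 0.254 (n = 5) and all below the 5 medium libraries. The mean was 1.91% ± 0.265 with 4µ8C and 2.19% ± 0.198 with 4PBA (n = 5 each), and both groups overlapped with medium. In KO cells the means were 2.17% ± 0.478 in medium, 1.71% ± 0.371 with LPS, 1.64% ± 0.270 with 4µ8C and 1.77% ± 0.392 with 4PBA (n = 5 each), and every KO group overlapped with its WT counterpart. Replicates 2 and 3 were the 2 highest libraries in every KO group, and replicate 5 was the lowest in every WT group. The ratio of 60S to 40S counts stayed between 1.27 and 1.45 over the 45 libraries. No test is given for these sums.

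**Figure D1:**
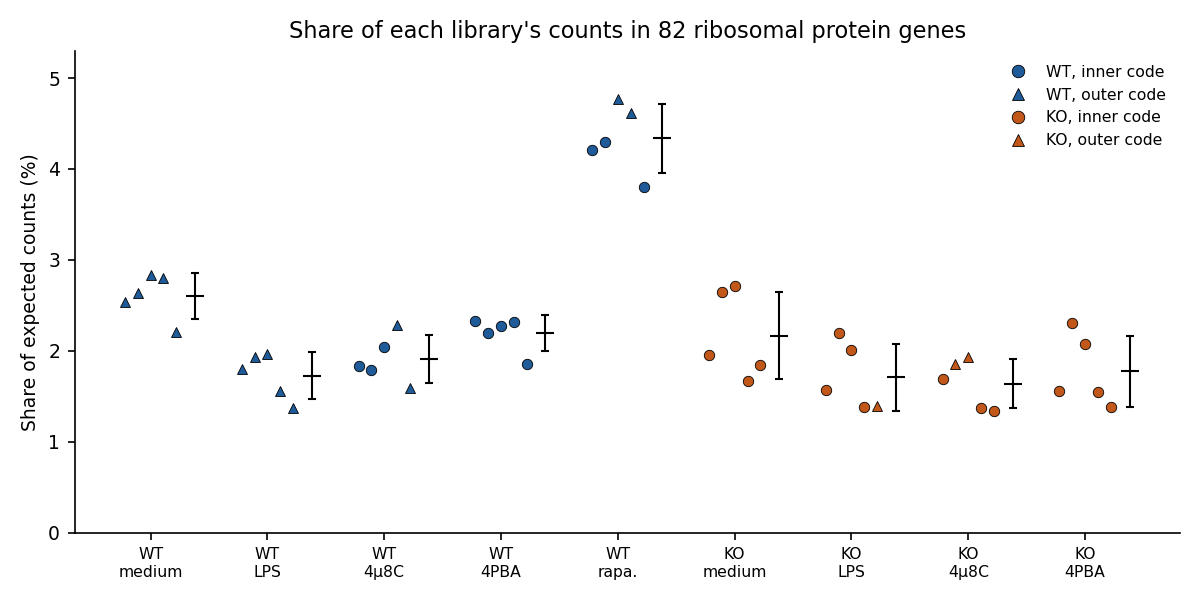
Share of each library's expected counts held by the 82 ribosomal protein genes (y axis, percent) in the 9 groups (x axis; rapa., rapamycin; blue WT, orange KO), with triangles for outer and circles for inner plate codes and the bar showing mean ± SD (n = 5). The rapamycin libraries, at 3.80% to 4.77%, lie above all others, and WT LPS libraries lie below WT medium libraries.

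Under rapamycin most ribosomal protein genes rose. Of 82 members 53 rose and 1 fell against WT medium, where 9.68% of all genes tested rose and 13.5% fell. The median log2 fold change was 0.56 over the members, with quartiles of 0.40 and 0.67, and -0.02 over all genes, and it was above 0 for 79 members. Of 49 members of the 60S subunit 34 rose (median 0.58), and of 33 of the 40S subunit 19 rose and 1 fell (median 0.51). The calls are from edgeR's quasi-likelihood test with Benjamini-Hochberg adjustment over all genes. The libraries of both groups did not overlap for 68 members that were higher and 1 that was lower with rapamycin, against 7.15% and 9.55% of all genes. Markers of dendritic cells summed to 4017 to 5316 CPM with rapamycin and 5632 to 6717 CPM in medium, and those of neutrophils to 17.6 to 33.2 and 40.8 to 75.9 CPM, with Mpo and Elane at 0 in both groups. Their part in the result was not tested.

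Single members illustrate the separation of the groups. Rpl6, a protein of the large subunit, was measured at 415, 357, 334, 331 and 289 CPM in WT medium and at 573, 662, 729, 659 and 493 CPM with rapamycin. Its lowest rapamycin library stood above its highest medium library, and the log2 fold change was 0.85 (SE 0.19, edgeR adjusted p = 0.00066). Rps6, the 40S protein that the S6 kinases phosphorylate downstream of mTORC1, stood at 434, 393, 406, 371 and 316 CPM in medium and at 629, 637, 767, 712 and 567 CPM with rapamycin. All 5 treated libraries were higher, with a log2 fold change of 0.79 (SE 0.21, edgeR adjusted p = 0.0042). Rps9, a 40S protein at the entry of the mRNA channel, had 315, 279, 263, 264 and 216 CPM against 435, 494, 509, 461 and 389.6 CPM with rapamycin. The groups were again apart, at a log2 fold change of 0.78 (SE 0.18, edgeR adjusted p = 0.00065).

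The largest log2 fold changes among members that rose were those of Rps2 (2.19, SE 0.33) and Rpl22l1 (1.24, SE 0.31), followed by Rpl3 (0.91), Rpl6, Rps7 (0.81), Rpl37 (0.80), Rpl13a (0.80), Rps6, Rps9 and Rps15a (0.76). Rpl22l1, the paralog of Rpl22, had 11.5, 12.004, 14.5, 15.3 and 9.10 CPM in medium and 29.0, 31.3, 29.6, 35.7 and 21.0 CPM with rapamycin, with no overlap (edgeR adjusted p = 0.0025). Rpl22 itself rose from 57.3, 61.1, 78.0, 88.4 and 62.4 CPM to 95.1, 106, 106, 117 and 89.6 CPM, each rapamycin library above each in medium (log2 fold change 0.56, SE 0.16, edgeR adjusted p = 0.0067). The smallest changes, none past the threshold, were those of Rps4y2 (-0.36), Rpl30 (-0.05), Rpl39 (0.15), Rps29 (0.19), Rps12 (0.23), Rpl41 (0.24), Rplp1 (0.26) and Rpl7l1 (0.28). Rpl30 had few counts beside a copy with more, Gm12191. Rpl10a had a log2 fold change of 1.01 that missed the threshold (SE 0.39, edgeR adjusted p = 0.058).

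The 1 member that fell with rapamycin was Rps27l, a paralog of Rps27 known in human cells as a target of p53. It had 65.1, 69.9, 78.9, 87.3 and 74.98 CPM in medium and 55.9, 51.6, 47.6, 61.2 and 48.9 CPM with rapamycin, so that every treated library was lower (log2 fold change -0.50, SE 0.13, edgeR adjusted p = 0.0027). Within outer codes, 2 rapamycin libraries against 5 in medium, 56 members rose and 1 fell, against 5.23% and 8.2% of all genes, and the median log2 fold change was 0.70. The position code as a term in the fit gave 64 rising and 1 falling (median 0.69), against 7.67% and 11.5% of all genes. Without WT medium replicate 5 the number rising was 33.

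**Figure D2:**
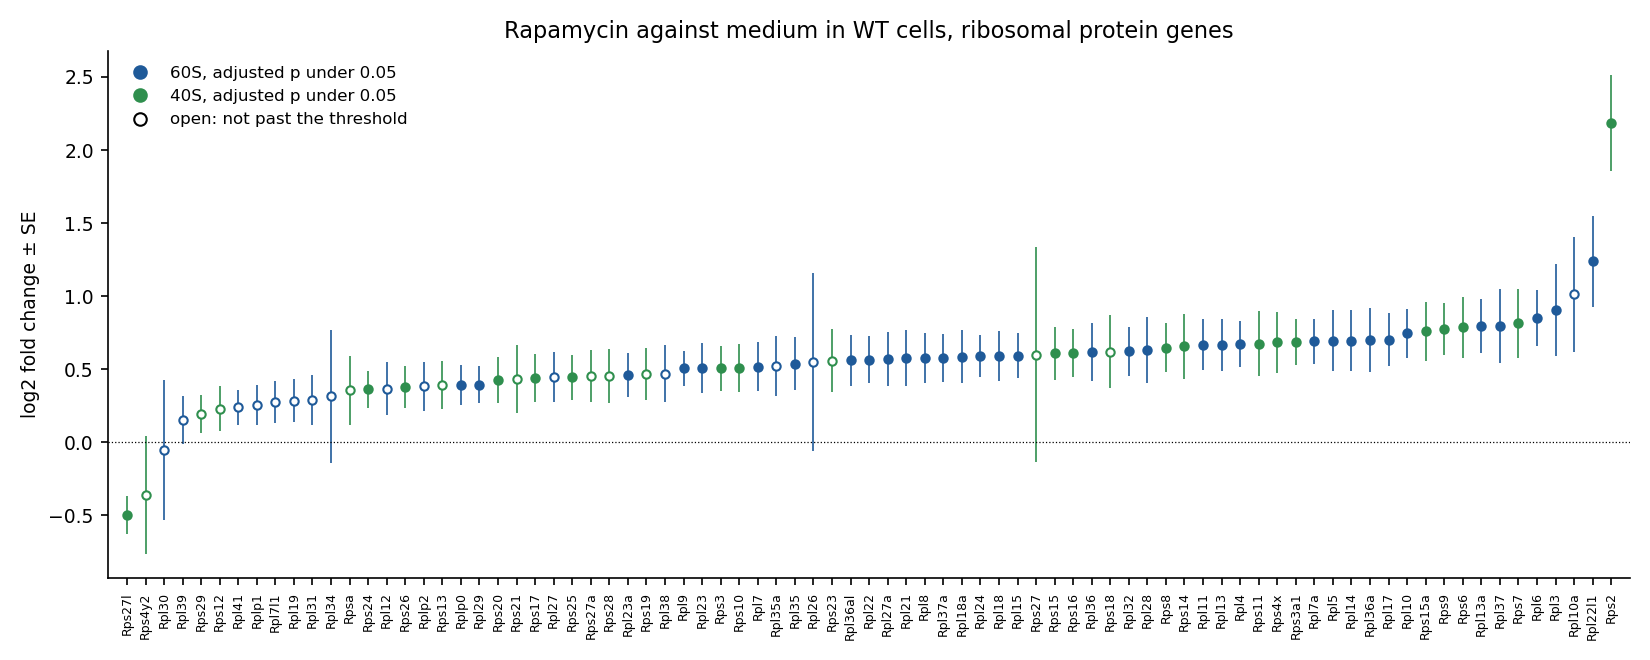
Log2 fold change of 81 of the 82 members in WT rapamycin against WT medium (y axis) with its standard error, the members ordered by size (x axis), 60S members in blue and 40S in green, open symbols where the edgeR adjusted p did not pass 0.05. The points cluster around 0.56, with Rps2, Rpl22l1, Rpl10a and Rpl3 among those above. Rpl30, Rps4y2 and Rps27l, the 1 member that fell, lie lowest.

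Most companion genes, a list chosen with earlier results of these data known, also rose. These are 19 tested genes outside the symbol rule that encode ribosomal proteins under other names, translation factors, or other proteins such as Npm1, Naca, Btf3, Tpt1 and Hnrnpa1, and 17 rose and 0 fell with rapamycin (median log2 fold change 0.78). Eef2, the elongation factor that moves the ribosome along the mRNA, was measured at 772, 833, 854, 736 and 659 CPM in medium and at 1577, 1646, 1990.2, 1463 and 1243 CPM with rapamycin. All 5 treated libraries stood above medium, with a log2 fold change of 1.04 (SE 0.15, edgeR adjusted p = 2.2e-07). Eif4b, an initiation factor that stimulates the helicase eIF4A, went from 103, 142, 149.6, 137 and 139 CPM to 314, 331, 312, 289.7 and 288 CPM (log2 fold change 1.19, SE 0.11, edgeR adjusted p = 8.1e-12). Its groups lay further apart than the spread within either. Gnb2l1, the scaffold protein RACK1 of the 40S subunit (0.49), and Tpt1 (0.29) did not pass, at edgeR adjusted p = 0.073 and 0.084. The companion Eif3f had a log2 fold change of 2.56, and like Rps2 it moved with the position code, with a log2 difference of -1.34 (SE 0.12, edgeR adjusted p = 8.3e-09) between outer and inner libraries.

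Of 75 tested genes for proteins of the mitochondrial ribosome, which makes the proteins encoded in mitochondria, 2 rose and 5 fell, with a median log2 fold change of 0.02. Among members with a RefSeq start, 7 of 13 with the TOP form at the start rose and 0 fell (median 0.59), and 31 of 48 without it rose and 1 fell (median 0.56). Among all other genes tested, 32 of 215 with the form rose and 27 fell (median 0.08), against 660 of 7480 without it that rose and 1003 that fell (median -0.02). No test of these differences is given.

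Against WT LPS the difference of the rapamycin group was wider. Of 82 members 74 were higher and 1 lower, where 29.6% of all genes were higher and 26.7% lower, and the median log2 fold change was 0.91. Of the 60S members 45 were higher and 0 lower (median 0.92), and of the 40S members 29 were higher and 1 lower (median 0.85). Rpl14, a large-subunit protein, had 113, 106, 115, 84.6 and 70.5 CPM with LPS and 225, 259, 275, 267 and 225 CPM with rapamycin. The groups did not overlap, and the log2 fold change was 1.36 (SE 0.22, edgeR adjusted p = 9.0e-07). Rpl6 (1.36), Rpl36al (1.45), Rpl10a (1.61) and Rpl11, which binds and inhibits Mdm2 when free of the ribosome (1.22), were further examples. Within outer codes 76 members were higher and 0 lower, against 23.8% and 21.7% of all genes. Neutrophil markers, only 2 of which reached a mean of 1 CPM, summed to 17.6 to 33.2 CPM with rapamycin and 74.1 to 84.1 CPM with LPS. Dendritic markers summed to 4017 to 5316 and 6369 to 9557 CPM, and macrophage markers to 2616 to 2950 and 2172 to 2477 CPM. The part of these markers was not tested. The comparison shares the rapamycin libraries with the one against medium.

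**Figure D3:**
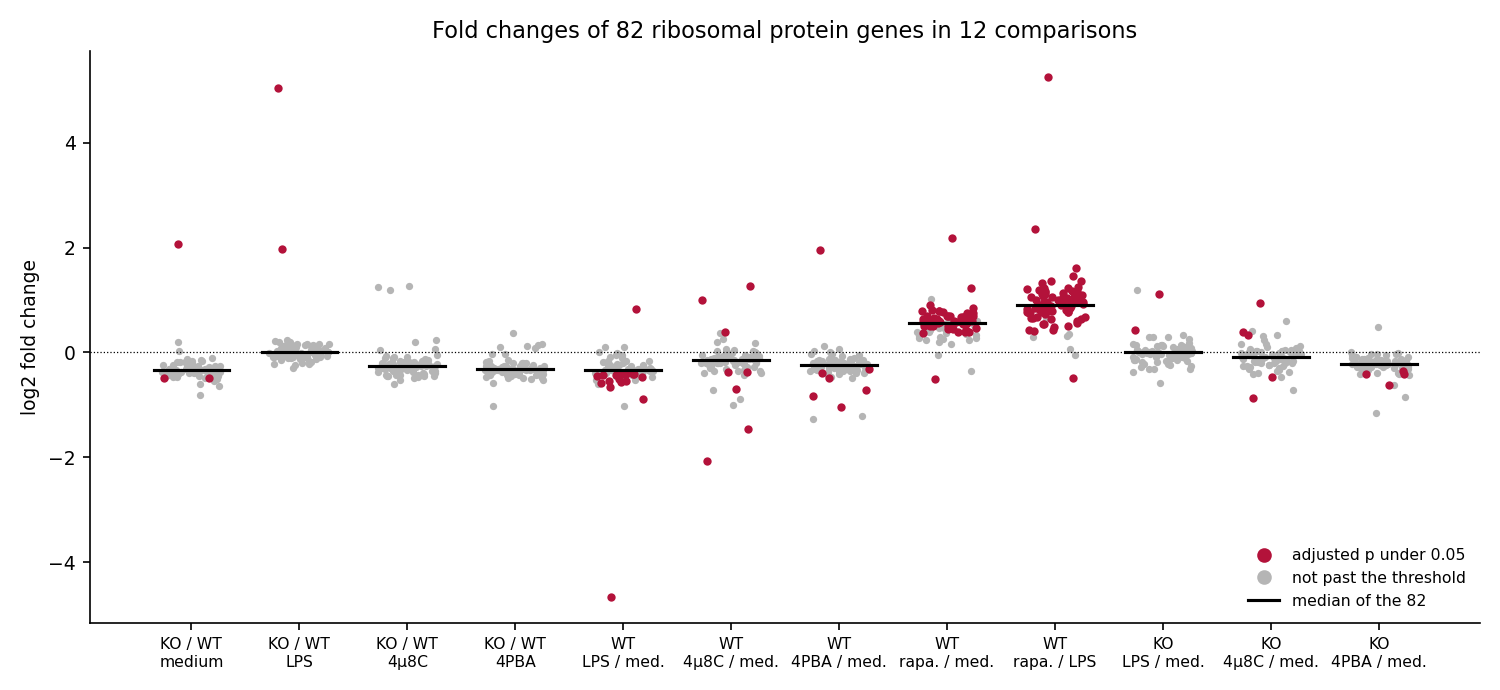
Log2 fold change (y axis) of the 82 members in 12 comparisons (x axis; med., medium; rapa., rapamycin), red where the edgeR adjusted p was under 0.05 and with a black line at the median. The medians lie at 0.56 and 0.91 in the rapamycin comparisons and between -0.34 and 0.01 in the other 10.

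After LPS, WT cells had lower counts of part of the ribosomal protein genes. Against medium 16 members fell and 1 rose, where 21.3% of all genes fell and 18.8% rose, so in the fit of all groups the share of members called, either way, was no larger than that of all genes. With only these 2 groups in the fit 38 of 81 members tested fell and 1 rose, against 22% and 21.3% of all genes. The median log2 fold change was -0.34 over the members and -0.07 over all genes. Libraries did not overlap for 12 lower members and 1 higher, against 13.5% and 13% of all genes. Members that fell included Rpl36al (-0.89), Rpl14 (-0.67), Rpl18 (-0.58), Rps27l (-0.56), Rpl11 (-0.55), Rpl27 (-0.55), Rpl6 (-0.51), Rpl13 (-0.47) and Rpl10 (-0.45), beside Rps27, whose values are uncertain. The number that fell was 9 without WT LPS replicate 4, 7 without WT LPS replicate 5, 9 without WT medium replicate 1 and 26 without WT medium replicate 5. For these fits the share over all genes is not given. Both groups have only outer codes. Of 75 mitochondrial ribosomal protein genes 40 fell and 1 rose (median -0.50), and of 19 companions 8 fell and 1, Pabpc1, rose.

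Under 4µ8C and 4PBA, which share the medium libraries with the LPS comparison, fewer members passed the test in the fit of all groups. With 4PBA more fell than in that fit when only the groups compared were fitted and replicates were paired. With 4µ8C 3 rose and 5 fell (median log2 fold change -0.15), where 20% of all genes rose and 20% fell. Rps2 and Rpl24, which had a log2 fold change of 0.39, were among those that rose, and those that fell were Rps27 (-2.08), Rps4y2 (-1.47), Rpl36al, Rpl7l1 (-0.37) and Rps27l. With 4PBA 1, Rps2, rose and 6 fell (median -0.24), where 22.4% rose and 21.3% fell, and libraries did not overlap for 1 higher and 8 lower members against 16% and 14.7% of all genes. With only these 2 groups in the fit and the replicate number as a block, which pairs their libraries, 49 members fell and 1 rose. Of all genes 24.5% fell and 25.3% rose there. For 4µ8C the calls were 2 higher and 13 lower without WT 4µ8C replicate 4, 3 and 2 without WT 4µ8C replicate 3 or WT medium replicate 1, and 2 and 3 without WT medium replicate 2 or 4. For 4PBA they were 1 and 3 without WT 4PBA replicate 5. With only its 2 groups in the fit and no block 1 rose and 19 fell, against 24.5% and 22.2% of all genes. With the position code as a term they were 2 and 2 for 4µ8C, against 17.3% and 16.5% of all genes, and 1 and 3 for 4PBA, against 14.5% and 12.3%. Of the mitochondrial set 30 fell with 4µ8C and 49 with 4PBA, of 75.

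Rpl36al, the paralog of Rpl36a, fell with LPS, 4µ8C and 4PBA in WT cells and rose with rapamycin. It had 73.2, 60.6, 64.2, 76.5 and 67.4 CPM in medium, 37.7, 41.8, 46.6, 28.8 and 30.8 CPM with LPS, and 35.8, 28.6, 29.8, 38.2 and 33.2 CPM with 4PBA. No LPS or 4PBA library reached the lowest one in medium, at log2 fold changes of -0.89 (SE 0.18, edgeR adjusted p = 0.0001) and -1.04 (SE 0.18, edgeR adjusted p = 7.6e-06). With 4µ8C it had 33.3, 39.5, 42.1, 71.2 and 33.1 CPM, and replicate 4 alone lay in the range of medium (log2 fold change -0.69). With rapamycin it had 98.5, 100.4, 102, 115 and 87.7 CPM, above every medium library, a log2 fold change of 0.56 (SE 0.17, edgeR adjusted p = 0.013).

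Rps27l fell with all 4 agents in WT cells. It stood at 46.6, 52.4, 52.3, 46.8 and 56.2 CPM with LPS and at 33.4, 38.4, 47.2, 48.9 and 43.2 CPM with 4PBA. Both groups lay below the 65.1 CPM of the lowest medium library, at log2 fold changes of -0.56 (SE 0.13, edgeR adjusted p = 0.00056) and -0.83 (SE 0.13, edgeR adjusted p = 1.1e-06). With 4µ8C it fell by 0.36 on the log2 scale (edgeR adjusted p = 0.025), with replicate 4 at 92.5 CPM and the others at 43.2 to 56.6. With the position code as a term the 4µ8C value was -0.26 and missed the threshold (edgeR adjusted p = 0.16).

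Rpl7l1, a paralog of Rpl7 with a known role in the making of ribosomes, fell with 4PBA. It had 80.8, 76.3, 69.8, 73.1 and 72.8 CPM in WT medium and 35.4, 39.3, 46.3, 48.0 and 56.0 CPM with 4PBA, with no overlap (log2 fold change -0.72, SE 0.15, edgeR adjusted p = 0.0001). Rps25, a 40S protein needed by several viral internal ribosome entry sites, went from 307, 279, 268, 278 and 229 CPM to 207, 198, 238, 224 and 168 CPM. Its ranges overlapped by 1 library of each group (log2 fold change -0.40, edgeR adjusted p = 0.031). Rpl27 (-0.49) and Rpl9 (-0.31) also fell with 4PBA.

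**Figure D4:**
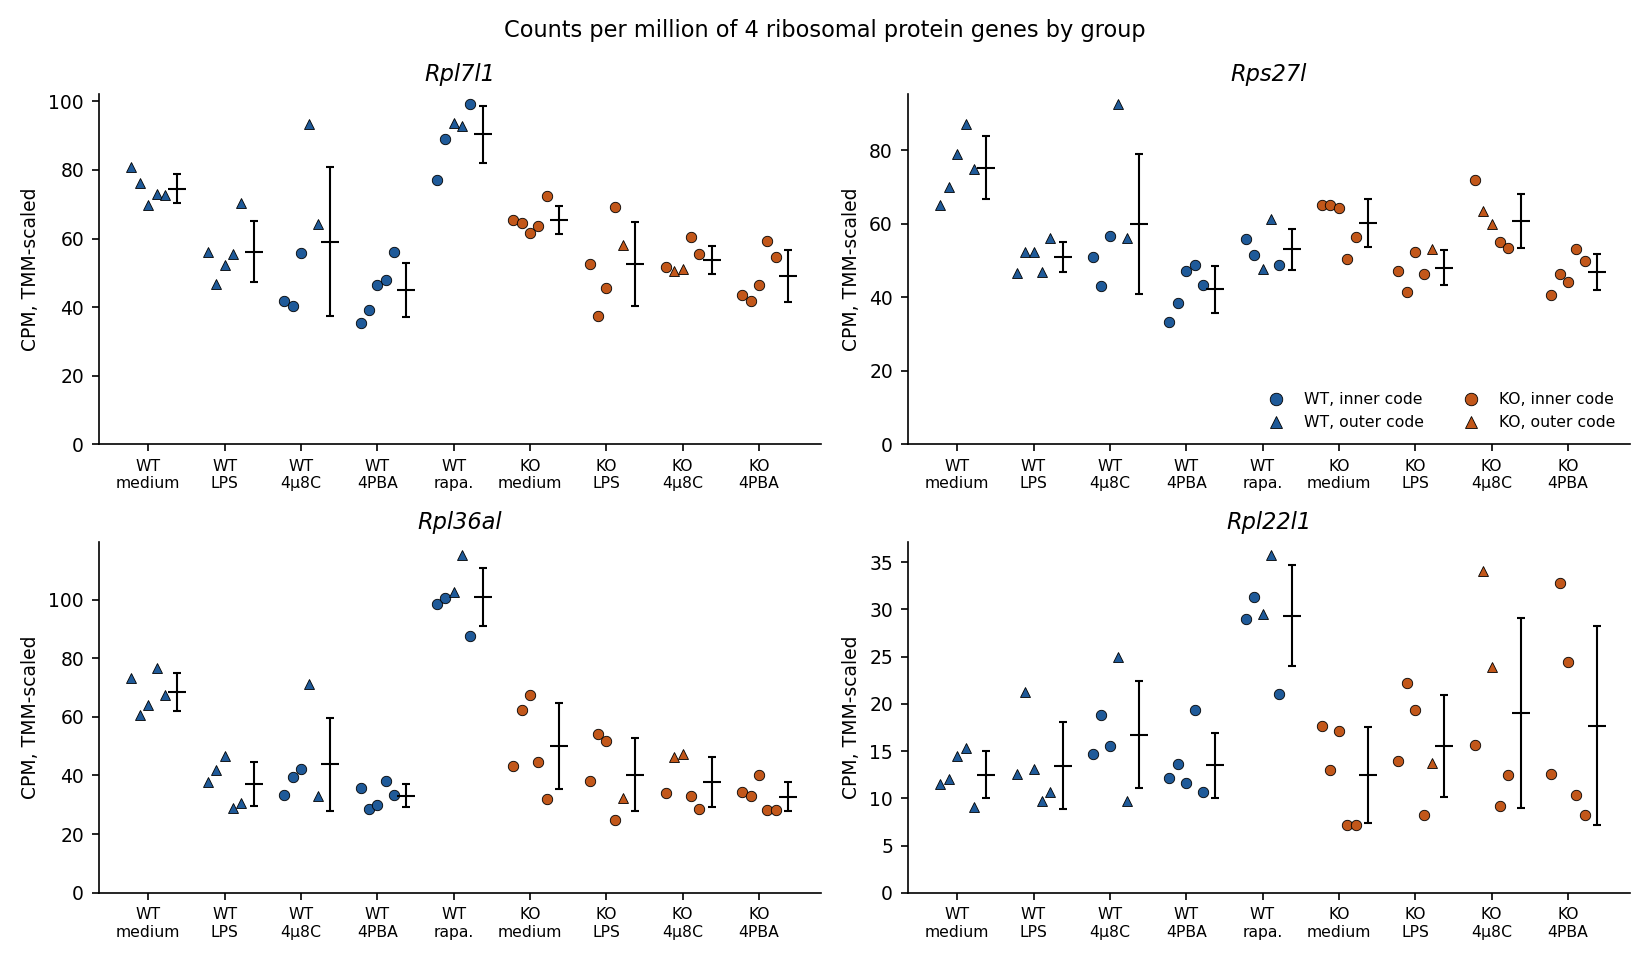
CPM with TMM scaling (y axes) of Rpl7l1, Rps27l, Rpl36al and Rpl22l1 in each library of the 9 groups (x axes; rapa., rapamycin; blue WT, orange KO), triangles for outer and circles for inner plate codes and bars for mean ± SD (n = 5). Rpl7l1 is lower with 4PBA than in medium in both genotypes, Rps27l has its highest mean in WT medium and its highest single value, 92.5 CPM, in 1 WT 4µ8C library, and Rpl36al is highest with rapamycin.

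In KO cells few members passed against KO medium in the fit of all groups, with Rpl24 among those that rose with LPS. More fell with 4PBA in a fit of only the groups compared with replicates paired. Of 82 members 2 rose and 0 fell with LPS (median log2 fold change -0.00), where 16.7% of all genes rose and 18.5% fell. With 4µ8C 3 rose and 2 fell (median -0.10), against 16.1% and 16.5% of all genes. With 4PBA 0 rose and 4 fell (median -0.22), against 17% and 16.2% of all genes. Macrophage markers summed to 1374 to 1813 CPM with 4PBA and 1976 to 2284 CPM in KO medium. Neutrophil markers summed to 40.6 to 73.5 CPM with 4PBA, 56.3 to 96.3 with LPS and 27.4 to 33.4 in KO medium. Only 2 neutrophil markers reached a mean of 1 CPM in each of these groups. The part of these markers was not tested. Replicate numbers pair the libraries in these comparisons. With the replicate block, fitted on only the groups compared, the calls were 6 higher and 2 lower with LPS, 6 and 9 with 4µ8C, and 0 and 40 with 4PBA. In all genes the block gave 19.2% and 17.5%, 17.9% and 18%, and 22.8% and 20.9%.

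Rpl24, a large-subunit protein that bridges to the 40S subunit, had 261, 258, 281, 221 and 216 CPM in KO medium and 280.1, 388, 398, 278 and 316 CPM with LPS. The ranges overlapped between 278 and 281 CPM, and the log2 fold change was 0.42 (SE 0.14, edgeR adjusted p = 0.017). With 4µ8C Rpl24 (0.39) and Rps24 (0.33) were among those that rose, and Rps2 (-0.87) and Rpl18 (-0.47) fell. With 4PBA Rpl36al (-0.62), Rpl7l1 (-0.40), Rps25 (-0.40) and Rps27l (-0.36) fell, each of which also fell with 4PBA in WT cells. Rpl7l1 had 65.3, 64.4, 61.6, 63.7 and 72.3 CPM in KO medium and 43.4, 41.7, 46.5, 59.3 and 54.7 CPM with 4PBA, with no overlap.

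Several of these counts depended on 1 library. With LPS 1 member rose without KO LPS replicate 2, KO LPS replicate 3 or KO medium replicate 5. With 4µ8C the calls were 1 higher and 2 lower without KO 4µ8C replicate 2 or 3 or KO medium replicate 5, 1 and 1 without KO 4µ8C replicate 4, 2 and 0 without KO medium replicate 2, and 3 and 0 without KO medium replicate 3. With 4PBA the number that fell was 1 without KO 4PBA replicate 1 or KO medium replicate 3, 2 without KO medium replicate 2 and 13 without KO 4PBA replicate 2. Within inner codes 2 rose and 1 fell with LPS, against 14.9% and 16.4% of all genes, 1 and 8 with 4µ8C, against 12.3% and 11.9%, and 0 and 6 with 4PBA, against 16.6% and 16.5%.

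Set against LPS, few members were called for 4µ8C and 4PBA in the fit of all groups. More were called for 4PBA with the replicate block and only the groups compared. In WT cells 1 member was higher and 0 lower with 4µ8C (median log2 fold change 0.20), against 0.204% and 0% of all genes. That member, Rps2 (1.44, SE 0.33, edgeR adjusted p = 0.046), did not pass without any one of WT 4µ8C replicates 1, 2 and 3 or any one WT LPS replicate. With 4PBA 2 were higher and 1 lower (median 0.09), against 15% and 12% of all genes, and Rps27 (3.39) and Rps2 (2.12) were the higher ones. The values of Rps27 are uncertain. Rps2 moved with the plate code, and WT LPS libraries all had outer codes and WT 4PBA libraries all inner ones. For 4PBA against LPS the replicate block gave 15 higher and 2 lower, against 19.9% and 18.6% of all genes.

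In KO cells 0 members passed in edgeR for 4µ8C against LPS, against 0% higher and 0.0292% lower of all genes, with 1 at an unadjusted p under 0.05, as were 7.78% of all genes, and 0 with the block and in DESeq2. With 4PBA against LPS 0 were higher and 3 lower (median -0.22), against 12.9% and 11.5% of all genes. Rpl24 (-0.48) and Rps25 (-0.42) were among them. With the block 0 were higher and 44 of 81 tested lower, against 16.7% and 16.5% of all genes. The number lower was 14 without KO 4PBA replicate 2, 6 without KO 4PBA replicate 3, 9 without KO LPS replicate 1 and 5 without KO LPS replicate 4 or 5. The share over all genes is not given for these fits.

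Between genotypes few members passed. In medium 1 was higher and 2 lower in KO cells (median log2 fold change -0.34), against 6.61% and 2.31% of all genes. Macrophage markers summed to 1976 to 2284 CPM in KO and 2319 to 3703 CPM in WT medium, and neutrophil markers to 27.4 to 33.4 and 40.8 to 75.9 CPM, with Ltf, Mpo and Elane at 0 in both, and their part was not tested. The 2 lower were Rps12 and Rpl39. Rps12 had 284, 273, 275, 266 and 229 CPM in WT and 162, 210.5, 232, 163 and 173 CPM in KO medium, where only KO replicate 3 reached the lowest WT library (log2 fold change -0.50, SE 0.16, edgeR adjusted p = 0.034). Rpl39, which lines the exit tunnel for nascent chains, had 248, 244, 224, 264 and 220.4 CPM in WT and 157, 163, 222, 158 and 155 CPM in KO medium. KO replicate 3 again lay within the WT range (log2 fold change -0.49, SE 0.16, edgeR adjusted p = 0.047). Neither passed with the position code as a term, where 0 members were called (median -0.13) against 0.559% higher and 0.0853% lower of all genes. Since the 5 WT libraries all had outer codes and the 5 KO libraries all inner ones, genotype and code cannot be told apart in this comparison. The number lower was 0 without any one of KO medium replicates 1, 4 and 5 or WT medium replicates 1 to 4, 7 without KO medium replicate 3 and 4 without WT medium replicate 5.

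With LPS 2 members were higher and 0 lower in KO cells (median 0.01), against 4.31% and 1.75% of all genes, and these were Rps27 and Rps2. The 5 WT LPS libraries had outer codes, with which Rps2 moved, and 4 KO LPS libraries had inner ones and 1 an outer one. Rps27 was listed at 575 bases with few counts in 5 WT LPS and 0 KO LPS libraries, and its values are uncertain. With 4µ8C and with 4PBA 0 members passed in edgeR, against 0.418% higher and 0.525% lower of all genes for 4µ8C and 0.185% and 0.311% for 4PBA. At an unadjusted p under 0.05 there were 18 and 24 (medians -0.27 and -0.32), where 12.9% and 10.6% of all genes were under it, and DESeq2 called 0 in both. All 4PBA libraries of both genotypes had inner codes.

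In edgeR an interaction of genotype and treatment passed for 1 member, Rps2. The WT medium libraries it rests on all had outer codes, and the KO medium libraries all had inner ones. The interaction of genotype and LPS passed for 0 members in edgeR, against 0% higher and 0.00972% lower of all genes, with 6 at an unadjusted p under 0.05, as were 7.38% of all genes, and 1, Rps27, in DESeq2. The log2 difference in response, KO minus WT, had a median of 0.35 over the members, and of 0.24 to 0.44 without 1 library. Members move together within a library: their median varied between libraries of a group with an SD of 0.28. Their signs are therefore not separate results. For 4µ8C and 4PBA 1 member each was lower and 0 higher, against 1.7% and 4.42% of all genes that were lower and 0.0875% and 0.311% that were higher.

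Rps2, which also lies at the mRNA entry of the 40S subunit, moved with the plate code. Within the 4 groups that hold both kinds of code, 7 outer libraries had lower values than 13 inner ones, by a log2 difference of -1.36 (SE 0.12, edgeR adjusted p = 2.1e-09). It was the only member called there, where 3.48% of the 9994 genes tested were lower and 0.08% higher. In the WT 4µ8C group it had 382, 395 and 379 CPM in the inner replicates 1 to 3 and 92.5 and 169.7 CPM in the outer replicates 4 and 5. With rapamycin the outer replicates 3 and 4 had 305 and 338 CPM and the inner ones 677, 725 and 639. In KO 4µ8C the outer replicates 2 and 3 had 149 and 138 CPM and the others 387, 298 and 378. In each of these groups outer and inner libraries did not overlap.

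WT medium, with outer codes throughout, had 61.4, 118, 161, 138 and 112 CPM of Rps2, and KO medium, with inner codes throughout, had 437, 571, 539, 408 and 516. The groups did not overlap and the log2 fold change was 2.07 (SE 0.33, edgeR adjusted p = 2.6e-05). With the position code as a term it was 0.72 and missed the threshold (SE 0.19, edgeR adjusted p = 0.051). The interactions of genotype with 4µ8C (-2.14, SE 0.45, edgeR adjusted p = 0.0068) and 4PBA (-2.58, SE 0.45, edgeR adjusted p = 0.00013) rest on the same WT medium libraries. With the term they were -0.76 (edgeR adjusted p = 0.59) and -1.24 (edgeR adjusted p = 0.0013). In WT cells the term lowered the log2 fold change of Rps2 against medium from 1.27 to 0.30 with 4µ8C (edgeR adjusted p = 0.18) and from 1.95 to 0.61 with 4PBA (edgeR adjusted p = 0.012). In KO cells the value for 4µ8C went from -0.87 to -0.46 (edgeR adjusted p = 0.020), and KO against WT with LPS from 1.97 to 0.80 (edgeR adjusted p = 0.012). Against WT LPS, Rps2 had 0.47 with 4µ8C (edgeR adjusted p = 0.42) and 0.78 with 4PBA (edgeR adjusted p = 0.0036) with the term. The rise with rapamycin was smaller inside 1 kind of code: in outer codes the 2 libraries at 305 and 338 CPM stood above the 5 in medium, with a log2 fold change of 1.45 (SE 0.19, edgeR adjusted p = 1.3e-07).

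Rps27 was measured at separate levels, which divided 5 of the 9 groups. In 14 libraries it was listed with a length of 575 bases and 5.74 to 25.5 expected counts, or 2.16 to 8.00 CPM. In the other 31 the listed length was 347 to 359 bases with 145 to 1038 counts, or 34.6 to 238 CPM. The low state took in all 5 WT LPS, 3 WT 4µ8C, 2 WT 4PBA, 2 KO medium, 1 KO 4µ8C and 1 KO 4PBA library, and 0 libraries of WT medium, rapamycin or KO LPS. The counts of the 31 libraries stood in steps: 9 at 145 to 157, 7 at 284 to 313, 7 at 418 to 440, 3 at 586 to 603, 4 at 698 to 756 and 1 at 1038. The length is RSEM's mean over the gene's transcripts, weighted by their estimated abundance, so a change of listed length is a change in the transcripts to which reads were assigned.

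The calls for Rps27 follow these levels. WT medium had 183, 115, 124, 81.0 and 95.3 CPM and WT LPS 5.24, 6.07, 3.41, 3.74 and 4.76, with no overlap (log2 fold change -4.66, SE 1.04, edgeR adjusted p = 0.00043). KO LPS had 55.2, 177, 178, 187 and 181 CPM, all above WT LPS (log2 fold change 5.04, SE 1.04, edgeR adjusted p = 0.0016). In KO medium replicates 4 and 5 stood at 4.72 and 2.16 CPM and replicates 1 to 3 at 76.5, 101 and 152. Of the 50-base words of its transcript 98.65% occur in transcripts of 9 other genes, none of which has a row in the files, so its values are uncertain.

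**Figure D5:**
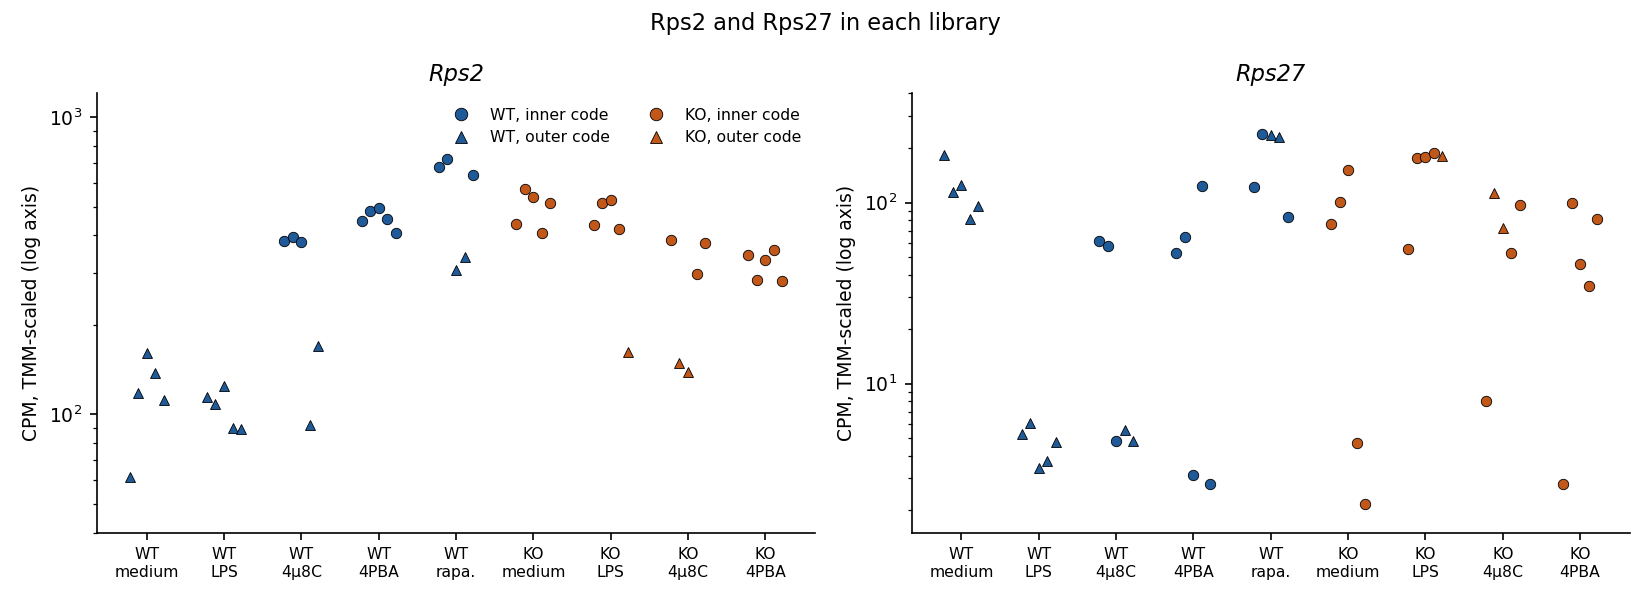
CPM of Rps2 and Rps27 (y axes, log scale) in each library of the 9 groups (x axes; rapa., rapamycin; blue WT, orange KO), triangles for outer and circles for inner plate codes. Rps2 is lower at outer codes within the groups that hold both, and Rps27 lies either at 2.16 to 8.00 CPM or at 34.6 to 238 CPM.

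Near-identical copies limit how far a member's counts belong to it. In a set of GENCODE transcripts 81 of 82 members shared at least 1 word of 50 bases with a transcript of another gene, and the median share of such words was 51.26%. For 43 members it was over 50%, and for Rps2 it was 79.03%, shared with 71 genes. With genes that have a row in the files 19 members shared words, 7 of them over 20%. The low values of some members stood beside higher ones of a copy: Rpl30 had a mean of 5.94 CPM and Gm12191 188, Rpl26 had 18.0 and Gm15772 278, and Rpl34 had 3.81 and Rpl34-ps1 171. When the counts of 11 such copies were summed into their members, 54 rose and 1 fell with rapamycin against medium, 77 and 1 were called against LPS, and 1 rose and 18 fell with LPS against medium. Shares over all genes are not given with copies summed.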

How the data were processed

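Libraries of 45 samples were made from 1 µg of total RNA, and RSEM gene tables were used. Per the file headers, the authors deposited RSEM's expected counts per gene as they came, with no scaling, and 9.09% of them were not whole. TPM values were scaled by RSEM per transcript length, per the file headers, and deposited by the authors, and were used for levels only. RSEM and bcl2fastq are named without versions per the submitters' processing notes. The aligner, genome build and annotation were not stated in these sources, and coordinates are those of the RefSeq table of GRCm38.p6.

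Expected counts were rounded, scaled by TMM (factors 0.716 to 1.29) and tested two-sided in R 4.3.3 (edgeR 4.0.16, limma 3.58.1). A robust quasi-likelihood fit of all 9 group means (36 residual degrees of freedom, common dispersion 0.037) took the 10287 genes kept by filterByExpr. A call was a p under 0.05 after Benjamini-Hochberg adjustment over all genes of the comparison, and 19 comparisons were made, 16 of 2 groups and 3 interactions. The sources call the replicates biological, without saying whether they are separate animals. SE come from the F statistic, so they include the spread among replicates and counting error. CPM of single genes are TMM-scaled, shares are of unscaled counts. Gene lengths and depth limit low members such as Rps4y2. Chi-square per gene between libraries of a group was 2.37 to 17.8 over 90 pairs, so none was a repeat deposit.

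Named were, per comparison, up to 10 called members with the largest change each way (6 in interactions), the 5 highest and 5 lowest by TPM, paralogs and companions; values of 1 member are not reported here, though it stays in all counts and medians. Members and lists were chosen with earlier results of these data known. Replicate numbers were taken to pair libraries where every same-numbered correlation of deviations over 2000 abundant genes exceeded 0.1. This held for 4PBA against medium and against LPS in both genotypes, and for KO LPS against KO medium and KO 4µ8C against KO medium and KO LPS, with correlations of 0.19 to 0.70. Plate position was read from codes in the descriptions: the first row and first or last column counted as outer. Alternatives were DESeq2 1.42.0, its size factors in edgeR, no filter, only the groups compared, the position term, the replicate block and leaving out each library. Fits with the replicate block held only the groups compared. Added after seeing the data were fits without replicate 4 of every KO group, with copies summed, within 1 kind of code, and the outer against inner comparison. Of the listed genes, 8 had no row in the files.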

Additional observations from a re-analysis of the deposited data

Results flagged for a closer look

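In 261 tests of a group's extreme library, 15 values, from 6 libraries, lay far from the other 4 of their group, where chance gives about 1 in 20. Most concerned WT 4PBA replicate 5, which was low: its ribosomal protein share was 1.85% (others 2.20% to 2.33%), Rpl6 was 200.2 CPM (289 to 319.8), Rps6 235 (351 to 379), Rpl10 349 (457 to 497), Rpl10a 46.9 (83.3 to 95.8), Rpl13 269.9 (344 to 369), Rpl18 131 (178 to 194) and Rpl27 115 (151 to 159). WT 4µ8C replicate 4 was high for Rps27l at 92.5 CPM (others 43.2 to 56.6), Rpl36al at 71.2 (33.1 to 42.1) and Rpl9 at 696 (396 to 460).

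In medium, WT replicate 1 was high for Rpl24 at 369.5 CPM (others 249 to 269), WT replicate 5 was low for Rpl10a at 71.7 (104 to 114), and KO replicate 3 was high for Rpl39 at 222 (155 to 163). KO LPS replicate 1 was low for Rps27 at 55.2 CPM (others 177 to 187).

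Rps2 responded differently in the 2 genotypes in a test of the difference itself, by -2.14 on the log2 scale for 4µ8C and -2.58 for 4PBA (KO response minus WT response), edgeR adjusted p = 0.0068 and 0.00013. With the position code as a term the differences were -0.76 (edgeR adjusted p = 0.59) and -1.24 (edgeR adjusted p = 0.0013). With the replicate block the 4µ8C difference did not pass either (edgeR adjusted p = 0.24).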

How the results depend on the processing

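Leaving out 1 library moved the members' median log2 fold change between -0.31 and -0.06 for WT 4µ8C and between -0.19 and 0.00 for KO 4µ8C against medium, and across 0 for KO LPS against medium (-0.11 to 0.10), KO against WT with LPS (-0.12 to 0.07), KO 4µ8C against LPS (-0.19 to 0.03) and the interactions of 4µ8C (-0.03 to 0.22) and 4PBA (-0.11 to 0.11). With rapamycin it stayed between 0.51 and 0.62 against medium and 0.82 and 0.95 against LPS. Of the named gene results 0 reversed. Among named results in settings other than leaving out a library, 487 kept their call and 58 lost it. Most were lost with the position term (16), without the filter (12) and with only the groups compared (9). Leaving out replicate 4 of every KO group bears on fewer named results, of which 10 kept their call and 8 lost it. Without 1 library 559 kept it and 121 lost it. Counts of members called moved more. Where no share over all genes stands beside such a count, a change in the whole test cannot be told apart from one in the members. With the position term they were 0 for KO against WT medium, 4 for WT 4µ8C, WT 4PBA and KO LPS against medium, and 0 for WT 4µ8C against WT LPS and the 4µ8C interaction. With the replicate block they were 14 for KO against WT medium, 4 for KO against WT 4PBA, 56 for WT LPS (where 20.9% of all genes rose and 21.8% fell), 50 for WT 4PBA, 8 for KO LPS, 15 for KO 4µ8C and 40 for KO 4PBA against medium, 0 for WT 4µ8C, 17 for WT 4PBA and 44 for KO 4PBA against LPS, and 0 for the 4µ8C interaction. Over all genes the block called 6.86% higher and 2.46% lower for KO against WT medium. It moved no other count by over 1.5 times. In the comparisons that did not meet the pairing rule, the lowest same-numbered correlation was -0.39. The highest in each of them lay between 0.19 and 0.60, so whether their libraries are related by number is not settled. With only the groups compared the counts were 1 for KO against WT 4PBA, 39 for WT LPS, 3 for WT 4µ8C, 20 for WT 4PBA and 3 for KO 4µ8C against medium, and 0 for WT 4µ8C against LPS. Without the filter they were 5, 3 and 0 for WT 4µ8C and KO 4µ8C against medium and WT 4µ8C against LPS. DESeq2 gave 7, and its size factors 5, for KO 4PBA against KO LPS, and DESeq2 gave 1 for the LPS interaction. Summing copies gave 5 for KO against WT medium, and leaving out replicate 4 of every KO group gave 1 there and 1 for KO 4µ8C against medium. Leaving out 1 library gave 1 to 8 for KO against WT medium, 8 to 27, 5 to 15, 4 to 10 and 34 to 57 for WT LPS, 4µ8C, 4PBA and rapamycin against medium, 1 to 3, 2 to 5 and 1 to 13 for KO LPS, 4µ8C and 4PBA against medium. Against LPS it gave 0 to 1 for WT 4µ8C, 2 to 3 for WT 4PBA, 74 to 76 for rapamycin and 2 to 14 for KO 4PBA, and 1 to 2 for the 4µ8C interaction. Without Rn45s the shares were 2.94% in WT medium, 2.48% with 4PBA and 4.93% with rapamycin. The causes were not tested. Low members such as Rps4y2 and Rpl34 have few counts, so small changes in them were not detectable at this depth.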
